A study of Mus musculus with 22 samples.

Results

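Osteopontin (Spp1), its receptor Cd44, the fibulins Fbln1, Fbln2, Fbln5 and Efemp1 (fibulin-3), and the matricellular proteins Thbs1 (thrombospondin-1), Tnc (tenascin-C) and Sparc were followed through all 10 groups of a collecting duct cell study. These 9 genes were taken by symbol from a table of 54514 gene entries. Spp1 and Fbln2 were picked because earlier results from the same libraries placed them among the largest falls in GFP-positive cells. The difference of the 9 genes between the sorted fractions is therefore given as a description, with no test, and they are tested only in contrasts other than the fraction difference averaged over the clones.

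All libraries are from mpkCCD, an immortal cell line of mouse cortical collecting duct, whose apical water channel aquaporin-2 (Aqp2) is under the control of vasopressin. WT cells, which carry no reporter and were left unsorted, were either kept without dDAVP (called vehicle here after the culture protocol, 3 libraries) or given dDAVP (3 libraries), a synthetic vasopressin analogue that activates the V2 receptor. Every GFP reporter line (C1, C11, C43 and C50) was given dDAVP and sorted into GFP-negative and GFP-positive cells, with 2 libraries per fraction and line, so that no sorted library lacks dDAVP and no unsorted reporter cells or vehicle-treated reporter cells enter the comparison. Each reporter line is described here by its name only, is treated as 1 clone, and differs from WT in the reporter, the cloning and the sorting together. The sequence that drives GFP, and the dDAVP dose and duration of each library, are not given in the sources used here. Nothing in the labels says that same-group libraries came from separate cultures, so p-values measure the spread between these libraries, which may be technical. The series title frames the question as how much Aqp2 expression varies from cell to cell, and the comparisons below ask how matricellular genes varied alongside it.

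Matricellular proteins are secreted into the extracellular matrix, where they signal to cells more than they bear load. Osteopontin is an acidic phosphoprotein that binds integrins through an arginine-glycine-aspartate motif and also engages CD44, the cell-surface receptor for hyaluronan; in the kidney it is made by tubular epithelium, enters the urine and restrains the growth of calcium crystals. Fibulins are calcium-binding glycoproteins that link elastic fibres, basement membranes and other matrix proteins, while thrombospondin-1, tenascin-C and SPARC modulate adhesion, growth factor activity and collagen assembly.

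The stretches upstream of the start sites are shown for Spp1, which with Fbln2 differed most between the sorted fractions, for its receptor Cd44, and for Fbln5, whose level varied mainly by clone. Each sequence is the 250 bases before an annotated start, 5′ to 3′ on the gene's strand, from RefSeq on the GRCm38.p6 build, and capitals mark matches to the searched motifs. The authors' own build is not given in the sources used here. The Spp1 window lies at chr5:104434861-104435110 on the plus strand, the Cd44 window at chr2:102901666-102901915 on the minus strand and the Fbln5 window at chr12:101819120-101819369 on the minus strand, and none of the 3 overlaps an annotated exon.
Spp1: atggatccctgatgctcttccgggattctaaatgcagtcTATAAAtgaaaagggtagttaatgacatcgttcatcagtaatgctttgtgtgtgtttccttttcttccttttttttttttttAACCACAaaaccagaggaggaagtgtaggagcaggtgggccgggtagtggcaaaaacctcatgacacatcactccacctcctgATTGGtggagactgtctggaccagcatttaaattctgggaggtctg
Cd44: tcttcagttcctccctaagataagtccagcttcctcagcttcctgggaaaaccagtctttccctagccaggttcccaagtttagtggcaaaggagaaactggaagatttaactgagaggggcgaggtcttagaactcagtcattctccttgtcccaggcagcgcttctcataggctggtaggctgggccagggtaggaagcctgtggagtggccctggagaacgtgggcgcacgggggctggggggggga
Fbln5: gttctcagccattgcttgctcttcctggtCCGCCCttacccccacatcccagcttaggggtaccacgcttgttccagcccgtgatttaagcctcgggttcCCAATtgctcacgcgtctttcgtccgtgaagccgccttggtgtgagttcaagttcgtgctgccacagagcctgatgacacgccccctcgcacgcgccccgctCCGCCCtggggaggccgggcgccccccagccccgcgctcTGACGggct
The 7 motifs, searched on both strands, were the TATA box TATAAA (in 12.4% of 32851 windows of the same length), the CCAAT box CCAAT (33.9%), the GC box GGGCGG (32.7%), the cAMP response half-site TGACG (17.8%), the AP-1 motif TGANTCA (6.75%), the RUNX motif AACCACA (4.40%) and the TEAD motif GGAATG (12.6%). With -1 as the last base before the start, the Spp1 window held TATAAA at -211, AACCACA at -129 and the CCAAT box on the other strand at -46. A further annotated start of Spp1, with its window at chr5:104435942-104436191, held 0 matches. The Fbln5 window held the GC box on the other strand at -221 and -48, CCAAT at -150 and TGACG at -9. The Cd44 window held 0 matches, which says only that these letters are absent there. GC content was 43.6% for Spp1, 56.4% for Cd44 and 65.2% for Fbln5, beside a median of 52.4% over all windows. Of the 9 genes, 8 had an entry in the promoter table, and the windows of Fbln2, Efemp1 and Sparc ran into annotated exons and are not printed.

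Expression is given as TPM, a per-length transcript abundance scaled to a fixed total, so sequencing depth is unknown and differences on the log2(TPM + 1) scale understate changes of weakly expressed genes. Aqp2 was 64.1 to 74.9 TPM with vehicle, 2759 to 3025 with dDAVP, 66.5 to 1680 in GFP-negative and 2008 to 7254 in GFP-positive libraries, and GFP was 5.31 to 17.6 and 1065 to 1567 TPM in the respective fractions. The collecting duct markers Aqp2, Avpr2, Scnn1a, Scnn1g, Fxyd4, Hsd11b2 and Gata3 reached 1 TPM in all 22 libraries, whereas Aqp3 did so in 15 (0.15 to 4.13 TPM) and Scnn1b and Elf5 in none (highest 0.82 and 0.31 TPM). Of the genes typical of other segments, Lrp2 reached 15.9 TPM and Aqp6 7.34 TPM, and the remaining 11 proximal tubule, thick ascending limb and intercalated cell markers stayed under 1 TPM. All 7 fibroblast markers stayed under 1 TPM everywhere, with a summed level of 0.01 to 1.69 TPM. Of the 6 macrophage markers, Adgre1, C1qa, C1qb and Lyz2 had a median of 0 and a highest value of 0.52 TPM, and Ptprc was 0.09 to 1.87 TPM. Csf1r, at 7.05 to 21.5 TPM, made up most of the macrophage list, which summed to 11.6 to 22.0 TPM in GFP-negative and 7.79 to 14.4 TPM in GFP-positive libraries. Of the libraries, 10 listed 17177 to 20250 genes above 0 and 12 listed 23135 to 31292, and these sets divide all groups except the GFP-negative cells of C1, both in the lower set, and of C11, both in the upper set. A single library stood apart: in GFP-negative C50 replicate 1, ribosomal protein transcripts took 8.38% of TPM, against at most 6.17% in any other. In this bulk RNA, fewer cells with a transcript and less transcript per cell cannot be told apart.

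Spp1 was abundant in every GFP-negative population and close to the bottom of the scale in every GFP-positive one. In GFP-negative cells it measured 152 and 137 TPM in C1, 60.8 and 51.1 in C50, 16.5 and 16.4 in C11, and 16.1 and 16.9 in C43. In GFP-positive cells it measured 3.37 and 2.81 TPM in C1, 1.76 and 1.54 in C11, 0.69 and 0.53 in C43, and 0.69 and 0.34 in C50. Every GFP-positive library lay below every GFP-negative and every unsorted library, with no overlap. The fraction means were 58.3 ± 56.0 TPM (SD, n = 8) and 1.47 ± 1.13 TPM (SD, n = 8), a ratio of 39.7 and a log2 difference of -4.14 (SE 0.298, clone as covariate). Among the libraries with more genes listed above 0 the log2 difference was -3.76, and among those with fewer it was -4.60, each over the 3 clones that have both fractions in the set. The first set holds no GFP-negative C1 and the second no GFP-negative C11, so the sets differ in clones as well as in detection. Over all libraries the difference was -3.80 with C1 left out and -4.61 with C11 left out. With a pseudocount of 0.1 it was -4.97.

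In unsorted WT cells Spp1 measured 36.9, 34.2 and 32.1 TPM with vehicle and 26.9, 23.8 and 28.7 TPM with dDAVP, so the unsorted groups fell between the clones' GFP-negative cells. C1 and C50 GFP-negative libraries were above all 6 WT libraries, and those of C11 and C43 were below all 6. From highest to lowest mean, the 10 groups ran C1 GFP-negative (144.22 ± 10.7, SD), C50 GFP-negative (55.97 ± 6.84), WT vehicle (34.4 ± 2.41), WT dDAVP (26.5 ± 2.49), C43 GFP-negative (16.5 ± 0.545), C11 GFP-negative (16.4 ± 0.099), C1 GFP-positive (3.09 ± 0.396), C11 GFP-positive (1.65 ± 0.156), C43 GFP-positive (0.61 ± 0.113) and C50 GFP-positive (0.515 ± 0.248). Neighbours in this order overlapped in 2 places, C43 with C11 among GFP-negative cells and C43 with C50 among GFP-positive cells.

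**Figure D1:**
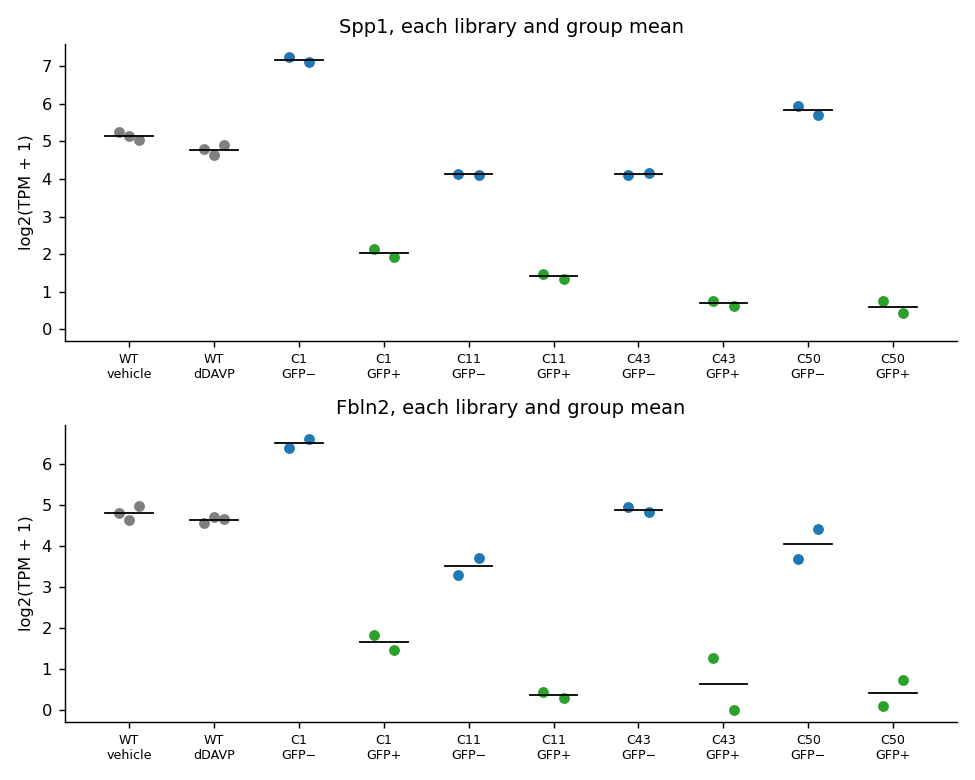
Spp1 (top) and Fbln2 (bottom) in all 22 libraries, as log2(TPM + 1) on the vertical axis and the 10 groups on the horizontal axis; points are libraries (grey unsorted, blue GFP-negative, green GFP-positive) and lines are group means. All 8 GFP-positive libraries sit below every other library for both genes, and C1 GFP-negative cells are the highest group.

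Cd44, which binds hyaluronan and osteopontin, showed a smaller separation than its ligand. It measured 12.9 and 13.1 TPM in GFP-negative C1 against 4.11 and 4.94 in GFP-positive C1. In C50 the values were 3.97 and 4.80 against 2.02 and 2.16, in C43 3.87 and 3.45 against 2.04 and 1.36, and in C11 2.56 and 2.68 against 1.68 and 2.03 TPM. Both GFP-positive libraries were below both GFP-negative libraries in each clone, but GFP-positive C1 was above the GFP-negative cells of C11 and C43, so the fractions overlapped across clones. The fraction means were 5.92 ± 4.44 and 2.54 ± 1.27 TPM (SD, n = 8 each), a ratio of 2.33 and a log2 difference of -0.82 (SE 0.132). It was -0.66 among the libraries with more genes listed (no GFP-negative C1) and -1.03 among those with fewer (no GFP-negative C11). Over all libraries it was -0.65 with C1 left out, -0.98 with C11 left out and -1.03 with a pseudocount of 0.1. WT cells lay within the range of the clone libraries, at 3.12, 3.89 and 3.58 TPM with vehicle and 2.95, 1.91 and 4.28 with dDAVP. Apart from GFP-negative C1, which stood clear at the top, the groups formed a gradient: GFP-positive C1 (4.53 TPM on average) and GFP-negative C50 overlapped, as did GFP-negative C43, WT vehicle, WT dDAVP and GFP-negative C11, each with the next, and the GFP-positive cells of C50, C11 and C43.

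Fbln2, a large fibulin of basement membranes and elastic fibre surfaces, had the same kind of separation as Spp1. It measured 82.7 and 96.4 TPM in GFP-negative C1, 29.9 and 27.2 in C43, 11.9 and 20.3 in C50, and 8.84 and 12.1 in C11. In GFP-positive cells it measured 2.59 and 1.76 TPM in C1, 0.37 and 0.24 in C11, and 0.07 and 0.67 in C50. In GFP-positive C43 it was 1.41 TPM in replicate 1 and listed at 0 in replicate 2. No GFP-positive library reached the lowest GFP-negative value, and the log2 difference was -3.96 (SE 0.244), between means of 36.2 ± 34.0 and 0.889 ± 0.935 TPM (SD, n = 8 each). It was -3.47 among the libraries with more genes listed (no GFP-negative C1) and -4.35 among those with fewer (no GFP-negative C11). Over all libraries the difference was -3.67 with C1 left out and -4.24 with C11 left out. With a pseudocount of 0.1 it was -5.42, against -4.97 for Spp1.

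In WT cells Fbln2 measured 26.8, 23.7 and 30.1 TPM with vehicle and 22.7, 25.2 and 24.1 with dDAVP. By group mean the order was C1 GFP-negative, C43 GFP-negative, WT vehicle, WT dDAVP, C50 GFP-negative, C11 GFP-negative, and then GFP-positive C1, C43, C50 and C11. C43 GFP-negative, WT vehicle and WT dDAVP overlapped each with the next, as did the GFP-negative cells of C50 and C11 and the GFP-positive cells of C43, C50 and C11. Clone C50 was thus high for Spp1 and not for Fbln2 among GFP-negative cells, while C43 was the reverse.

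Fbln5, which helps assemble elastic fibres and binds integrins, varied by clone more than by GFP fraction. It measured 5.26 and 6.62 TPM in GFP-negative C11 and 2.22 and 2.16 in GFP-positive C11. In C43 it measured 2.70 and 1.78 TPM in GFP-negative and 1.81 and 4.59 in GFP-positive cells. It was close to absent in C1, at 0.15 TPM and a listed 0 in GFP-negative and 0.18 and 0.21 in GFP-positive libraries. C50 was similar, with 0.47 TPM and a listed 0 in GFP-negative and 0.44 and 0.81 in GFP-positive libraries. WT cells expressed it throughout, at 4.14, 3.63 and 3.79 TPM with vehicle and 5.79, 4.86 and 4.11 with dDAVP. The averaged log2 difference between fractions was -0.06 (SE 0.226), with the GFP-positive libraries below in C11 and above in C1. It was -0.40 among libraries with more genes listed and 0.56 among those with fewer, and the libraries that list Fbln5 at 0 both belong to the latter set. The first set holds no GFP-negative C1 and the second no GFP-negative C11, so the sets differ in clones as well as in detection. Over all libraries the difference was -0.13 with C1 left out and 0.29 with C11 left out. With a pseudocount of 0.1 it was 0.36. By group mean, GFP-negative C11, WT dDAVP, WT vehicle, GFP-positive C43, GFP-negative C43 and GFP-positive C11 overlapped each with the next, and both fractions of C50 and of C1 lay clear below them.

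The other fibulins were at the limit of the table. Fbln1, a matrix and plasma fibulin, did not exceed 0.04 TPM and was above 0 in 9 of 22 libraries. Efemp1 did not exceed 0.45 TPM and was above 0 in 7 of 22. Tnc, the tenascin of remodelling tissue, did not exceed 0.17 TPM and was above 0 in 15 of 22. These 3 genes fell under the filter of a mean of 1 TPM and were not tested, which left 6 of the 9 genes for the tests.

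Sparc, a collagen-binding glycoprotein, was low outside the GFP-negative cells of C1. It measured 15.6 and 7.25 TPM there, and 1.62 and 1.98 in C50, 1.46 and 0.96 in C11, and 1.31 and 1.15 in C43 GFP-negative cells. In GFP-positive cells it measured 0.53 and 0.10 TPM in C1, 0.25 in C11 replicate 1, 0.30 in C43 replicate 1 and 0.47 in C50 replicate 2, and it was listed at 0 in the other library of C11, C43 and C50. All GFP-positive libraries were below all GFP-negative ones. WT cells gave 2.30, 1.00 and 1.32 TPM with vehicle and 1.47, 2.27 and 1.95 with dDAVP, and in the order of means WT dDAVP, GFP-negative C50, WT vehicle, GFP-negative C43 and GFP-negative C11 overlapped each with the next. The log2 difference between fractions was -1.58 (SE 0.295), -1.05 without C1 and -1.78 without C11. It was -0.89 in the libraries with more genes listed (no GFP-negative C1) and -1.81 in those with fewer (no GFP-negative C11). With a pseudocount of 0.1 it was -3.35. Its size thus depends on C1 and on the pseudocount. The 3 libraries that list Sparc at 0 are all among those with fewer genes above 0, and the part of detection in the difference was not tested.

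Thbs1, a trimeric glycoprotein that activates latent transforming growth factor beta and binds CD36 and CD47, was the most abundant of the 9 genes per length in every group. It measured 348 and 574 TPM in GFP-negative C1, 324 and 439 in C11, 229 and 245 in C43, and 95.2 and 380.3 in C50. In GFP-positive cells it measured 608 and 618 TPM in C1, 220.3 and 309 in C11, 173 and 127 in C43, and 232 and 223 in C50. GFP-positive libraries were below GFP-negative ones in C11 and C43, above them in C1 and inside their range in C50. The low C50 value is that of the library with the high ribosomal protein share. Fraction means were 329 ± 145 and 314 ± 192 TPM (SD, n = 8 each), a log2 difference of -0.12 (SE 0.249), -0.34 without GFP-negative C50 replicate 1 and 0.02 without its replicate 2. It was -0.65 among the libraries with more genes listed (no GFP-negative C1) and 0.26 among those with fewer (no GFP-negative C11). With C1 left out it was -0.32 and with C11 left out 0.01, so no direction is given. WT cells lay in the same range, at 567, 409.8 and 421 TPM with vehicle and 328, 480.0 and 377 with dDAVP. By group mean, GFP-positive C1 was highest and clear of all other groups, and GFP-positive C43 was lowest, below every library but GFP-negative C50 replicate 1.

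**Figure D2:**
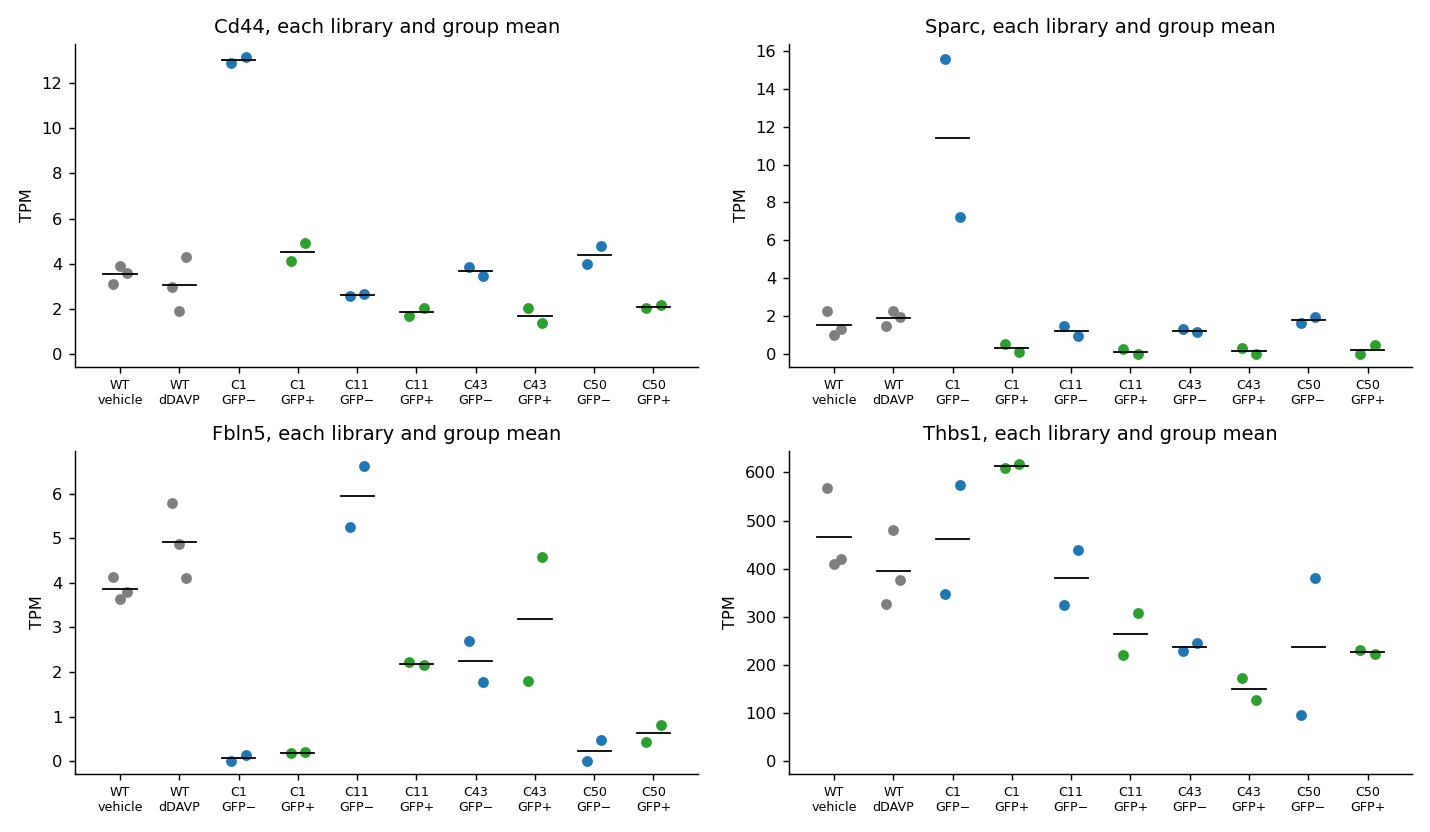
TPM (vertical axis, linear) of Cd44, Sparc, Fbln5 and Thbs1 in the 10 groups; points are libraries (grey unsorted, blue GFP-negative, green GFP-positive) and lines are group means. Cd44 and Sparc peak in C1 GFP-negative cells (12.9 to 13.1 and 7.25 to 15.6 TPM), Fbln5 is under 1 TPM in C1 and C50, and Thbs1 overlaps between the fractions.

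Counting each clone by its own libraries, 4 of the 9 genes (Spp1, Fbln2, Cd44 and Sparc) had both GFP-positive libraries below both GFP-negative libraries in all 4 clones, where 12.2% of the 13113 genes tested did so. That contrast is the one on which Spp1 and Fbln2 were chosen, so nothing is read from the count. The summed level of 6 proliferation markers (Mki67, Top2a, Ccnb1, Cdk1, Birc5 and Bub1) was 565 to 1021 TPM in GFP-negative and 242 to 431 TPM in GFP-positive libraries, with no overlap, and 745 to 828 TPM with vehicle and 441 to 638 TPM with dDAVP in WT cells. Its part in the differences of these 4 genes was not tested.

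Whether the fraction difference itself varied from clone to clone was tested with limma (moderated F-test, Benjamini-Hochberg adjustment over all genes). This contrast leaves out the average over clones but comes from the same 16 libraries in which Spp1 and Fbln2 were picked, and a gene with a large fall has more room to differ, so it is not independent of that choice. Of the 6 genes tested, 1 passed, Spp1, with an adjusted p of 0.000785, against 0.869% of all genes. Its log2 difference was -5.24 in C50, -5.15 in C1, -3.44 in C43 and -2.72 in C11 (SE 0.169 for each clone), which in TPM are ratios of 109, 46.7, 27.0 and 9.96. The clones with the wider gap were those with the higher Spp1 in GFP-negative cells. The gap is computed from that level, and GFP-positive values were low (0.34 to 3.37 TPM), so this relation is partly built into the measure. The ratio of 109 in C50 rests on GFP-positive values of 0.69 and 0.34 TPM. Aqp2 in GFP-negative cells averaged 69.5 TPM in C1 and 1243 in C50, against 249 in C11 and 1624 in C43, so the clones with the wider Spp1 gap held the lowest and an intermediate level of Aqp2. Without the ribosomal-rich library, GFP-negative C50 replicate 1, the adjusted p for Spp1 was 0.000826.

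For the remaining 5 genes limma gave interaction adjusted p-values of 0.139 for Sparc, 0.324 for Cd44, 0.334 for Fbln5, 0.376 for Fbln2 and 0.603 for Thbs1. At an unadjusted p under 0.05, 5 of the 6 genes passed (all but Thbs1), beside 1691 of the 13113 genes. Spp1 and Fbln2 were picked in these libraries, and Sparc and Fbln5 are limited by the filter as given below. Nothing is therefore read from this count. The Fbln2 differences were -4.84 in C1, -4.25 in C43, -3.63 in C50 and -3.12 in C11 (SE 0.389). Those of Cd44 were -1.35 in C1, -0.80 in C43 and in C50, and -0.35 in C11 (SE 0.197). Sparc differed by -3.17 in C1 and by -0.97 to -1.20 in the other clones (SE 0.366). Leaving out GFP-negative C50 replicate 2 raised the number of genes passing from 1 to 3 (Spp1, Sparc with a limma adjusted p of 0.0176 and Thbs1 with 0.00756), in a fit where 5038 of 13066 genes passed and the lone C50 library was assumed to vary like the other groups. Sparc reached the filter of a mean of 1 TPM only through GFP-negative C1, and Fbln5 only through C11 and C43. The interaction values of both are therefore a description.

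**Figure D3:**
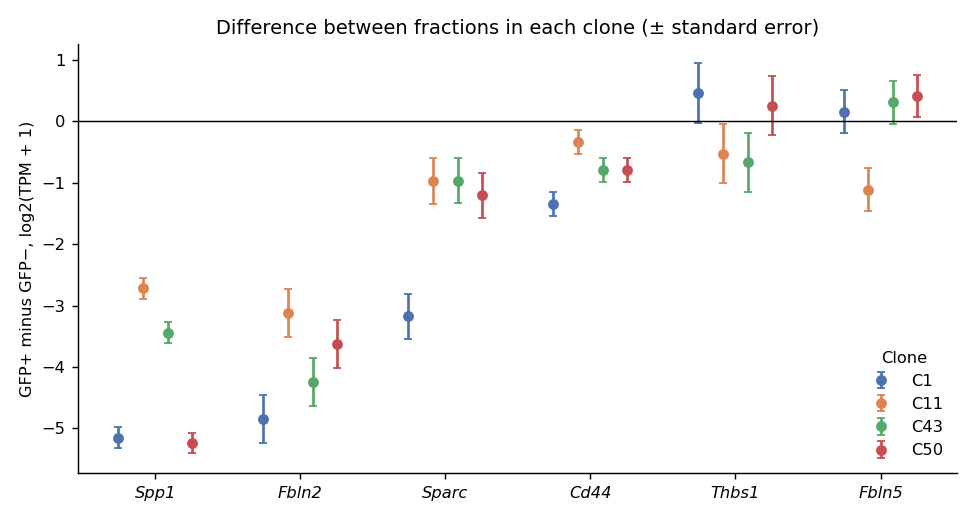
Difference between GFP-positive and GFP-negative cells on the log2(TPM + 1) scale (vertical axis) for 6 genes (horizontal axis) in clones C1, C11, C43 and C50; points are differences of means of 2 libraries and bars are standard errors. Spp1 spans -5.24 (C50) to -2.72 (C11) with bars that separate C1 and C50 from C11 and C43, while Thbs1 and Fbln5 fall on both sides of 0.

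Among GFP-negative cells, 5 of the 6 genes differed between the clones in limma's F-test, where 16.9% of all genes did. The adjusted p-values were 1.51e-06 for Spp1, 0.000271 for Cd44, 0.000910 for Fbln5, 0.00166 for Fbln2 and 0.00242 for Sparc. C1 was the highest clone for Spp1, Fbln2, Cd44 and Sparc and C11 the lowest, with ratios of their means of 8.78, 8.57, 4.97 and 9.43. Here too Sparc entered only through the GFP-negative cells of C1, and Fbln5 only through C11 and C43, so their calls support nothing and the count is a description. Fbln5 ran the other way, at 5.94 TPM in C11 and 0.075 TPM in C1. Thbs1 varied 1.94-fold between C1 and C43 and did not pass (limma adjusted p = 0.209), but did without GFP-negative C50 replicate 2 (limma adjusted p = 0.000562), in a fit where 7451 of 13066 genes passed. With a pseudocount of 0.1, Fbln2 and Sparc no longer passed (limma adjusted p = 0.140 and 0.115).

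Among GFP-positive cells, 3 of the 6 genes differed between the clones, beside 18.9% of all genes. Fbln2 and Sparc averaged under 1 TPM in GFP-positive cells and entered this test through their GFP-negative levels, and Fbln5 entered through C11 and C43, the clones where it is high, so the count and the call of Fbln5 are a description. Spp1 had a limma adjusted p of 0.000366 and was 6-fold higher in C1 than in C50, although both were under 4 TPM. Cd44 had an adjusted p of 0.00930 and was 2.66-fold higher in C1 than in C43, and Fbln5 had 0.0112, from 0.195 TPM in C1 to 3.20 in C43. Thbs1 (4.08-fold between C1 and C43), Fbln2 (7.13-fold between C1 and C11) and Sparc had limma adjusted p-values of 0.0501, 0.0925 and 0.962. Without GFP-positive C1 replicate 1 or without its replicate 2, only Spp1 of the 6 passed. Without GFP-negative C50 replicate 1 or without its replicate 2, Thbs1 and Fbln2 passed as well, with limma adjusted p-values of 0.000664 and 0.0475 in the first case, in fits where 5051 of 13151 and 5067 of 13066 genes passed. Fbln2 also passed without either GFP-positive library of C43 (limma adjusted p = 0.0183 and 0.0321), and Thbs1 after median-ratio scaling (limma adjusted p = 0.0167).

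In unsorted WT cells dDAVP changed none of the 6 genes past the threshold (limma, 0 of 6 at an adjusted p under 0.05, where 8.88% of 13494 genes were called, 2.37% higher and 6.51% lower). At an unadjusted p under 0.05, 1 of the 6 passed, beside 4179 of the 13494 genes. All dDAVP differences stand beside a median of -0.16 over all genes, which median-ratio scaling of the libraries moved to -0.000386 and which turned the split of calls from 320 higher and 878 lower to 451 higher and 306 lower. Spp1 was lower with dDAVP in all 3 libraries, with no overlap, by a log2 difference of -0.37 (SE 0.102, 95% interval -0.61 to -0.13). Its limma adjusted p was 0.0646, 0.0492 when genes under a mean of 5 TPM were left out, and 0.0492 to 0.382 over 15 alternatives, and the difference was -0.20 after median-ratio scaling. Fbln2 differed by -0.15 (95% interval -0.41 to 0.10), a sign that turned to 0.01 after median-ratio scaling and 0.05 after quantile normalization.

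The intervals for the other genes were wider. Cd44 differed by -0.20 (95% interval -0.78 to 0.38) and Thbs1 by -0.24 (-0.64 to 0.16), while Sparc differed by 0.21 (-0.43 to 0.86) and Fbln5 by 0.28 (-0.11 to 0.67). The limma adjusted p-values of Fbln2, Cd44, Thbs1, Sparc and Fbln5 were 0.374, 0.599, 0.371, 0.619 and 0.289. Vehicle and dDAVP libraries overlapped for Fbln2, Cd44, Thbs1 and Sparc, and for Fbln5 the highest vehicle value (4.14 TPM) was just above the lowest dDAVP value (4.11 TPM). In the same libraries Aqp2 went from at most 74.9 to at least 2759 TPM. The WT contrast and the sorted contrast differ in reporter, cloning, sorting and treatment, so their sizes were not compared by a test.

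Genes that work with these proteins were listed by their known roles: 25 partners of osteopontin and CD44, 18 other fibulin and elastic fibre genes and 24 other matricellular genes. Of these 67 related genes, 20 reached a mean of 1 TPM and were tested, and none of the other 47 exceeded 3.00 TPM in any library (Hmcn1). Between GFP-positive and GFP-negative cells, 3 were higher and 10 lower (limma, adjusted p under 0.05), against 12.1% and 23.2% of all genes, with a median log2 difference of -0.47 beside -0.06 over all genes. The 10 lower include Ltbp1, which reached the filter only through GFP-negative cells, so the count is a description. The libraries behind this contrast are those in which Spp1 and Fbln2 were picked, and median-ratio scaling turned the split over all genes from 1582 higher and 3044 lower to 2382 higher and 2294 lower.

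Among the partners of osteopontin and CD44, 2 of 10 tested genes rose and 5 fell, beside 12.1% and 23.2% of all genes. Their median was -0.28, beside -0.06 over all genes. Msn (moesin), which tethers CD44 to cortical actin, fell from 151 ± 39.0 to 44.6 ± 15.3 TPM (SD, n = 8 each), a log2 change of -1.75 (SE 0.141, limma adjusted p = 4.81e-07), and was lower in all 4 clones. Its relative Ezr (ezrin), the form typical of epithelial microvilli, rose from 662 ± 180.2 to 842 ± 117 TPM, a log2 change of 0.39 (SE 0.121, limma adjusted p = 0.0204), but did not pass after quantile normalization or when genes with any TPM above 0 were kept. Fam20c, the secretory-pathway kinase that phosphorylates osteopontin, rose from 675 ± 196 to 1086 ± 118 TPM, a log2 change of 0.74 (SE 0.128, limma adjusted p = 0.000424). The integrin subunits Itga5, Itgb6 and Itgb1 and the hyaluronan receptor Hmmr also fell, with log2 changes of -0.82, -0.59, -0.44 and -0.72, and the osteopontin receptor subunits Itgav and Itgb5 did not pass (-0.01 and 0.21). The call of Itgb1 was lost without GFP-negative C43 replicate 1, without GFP-positive C43 replicate 2 and when genes with any TPM above 0 were kept. The proliferation markers were lower in the same GFP-positive libraries, with the ranges given above, Hmmr is itself a gene of the mitotic spindle, and their part in the changes of the related genes was not tested.

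Of the other fibulin and elastic fibre genes, 0 of 5 tested rose and 3 fell, beside 12.1% and 23.2% of all genes. Their median was -0.55, beside -0.06 over all genes. Ltbp1, which holds latent transforming growth factor beta in the matrix, fell from 3.81 ± 1.63 to 0.581 ± 0.197 TPM, a log2 change of -1.55 (SE 0.166, limma adjusted p = 6.96e-06), or -2.47 with a pseudocount of 0.1. It reached the filter only through GFP-negative cells, so this call and the count of 3 are a description. Efemp2 (fibulin-4), required for elastin cross-linking, fell from 98.2 ± 28.6 to 46.5 ± 18.3 TPM, a log2 change of -1.09 (SE 0.0769, limma adjusted p = 1.24e-07). Both were lower in all 4 clones. Hmcn2 fell with a log2 change of -0.48 (limma adjusted p = 0.0339) and kept its call in 10 of 24 alternatives, losing it when any of 10 clone libraries was left out.

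Of the other matricellular genes, 1 of 5 tested rose and 2 fell, beside 12.1% and 23.2% of all genes. Their median was 0.13, beside -0.06 over all genes. Thbs3, a pentameric thrombospondin, fell from 26.0 ± 4.54 to 13.5 ± 4.17 TPM, a log2 change of -0.92 (SE 0.150, limma adjusted p = 0.000255). Cd47, the thrombospondin-1 receptor that signals to phagocytes, rose from 186 ± 36.7 to 265 ± 47.4 TPM, a log2 change of 0.51 (SE 0.0689, limma adjusted p = 4.97e-05), and was higher in all 4 clones. Ccn2, a target of the Hippo pathway, fell from 2895 ± 817 to 1868 ± 977 TPM, a log2 change of -0.75 (limma adjusted p = 0.000489). Ccn1, its close relative and the most abundant gene of the list, was 11660 ± 2952 and 12869 ± 3468 TPM and did not pass (limma adjusted p = 0.448).

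With dDAVP in WT cells, 0 of the 20 related genes rose and 7 fell, against 2.37% and 6.51% of all genes, with a median of -0.32 beside -0.16 over all genes. They were 3 partners of osteopontin and CD44 (Itgb6, Hmmr and Msn), 2 elastic fibre genes (Ltbp4 and Ltbp3) and 2 matricellular genes (Thbs3 and Ccn2). Thbs3 fell from 36.2 ± 2.65 to 18.3 ± 2.40 TPM (SD, n = 3 each), a log2 change of -0.95 (SE 0.119, limma adjusted p = 0.00606). Ltbp4, a latent transforming growth factor beta carrier of elastic fibres, fell from 39.2 ± 5.12 to 21.5 ± 3.48 TPM, a log2 change of -0.84 (SE 0.140, limma adjusted p = 0.0162). Itgb6, the epithelial partner of the alpha-v integrin, fell from 65.7 ± 4.44 to 37.9 ± 5.20 TPM, a log2 change of -0.78 (SE 0.112, limma adjusted p = 0.00978). Ltbp3 fell from 122 ± 12.2 to 75.7 ± 13.4 TPM, a log2 change of -0.69 (SE 0.139, limma adjusted p = 0.0290). The count of 7 became 4 after median-ratio scaling, and 2 or 3 without any single WT library other than dDAVP replicate 2. The proliferation markers summed to 745 to 828 TPM with vehicle and 441 to 638 with dDAVP, and their part in these falls was not tested. Thbs3 and Itgb6 kept their calls in 14 of 15 alternatives each, Ltbp4 in 10, Hmmr in 8, Ltbp3 in 6 and Msn and Ccn2 in 4 each.

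**Figure D4:**
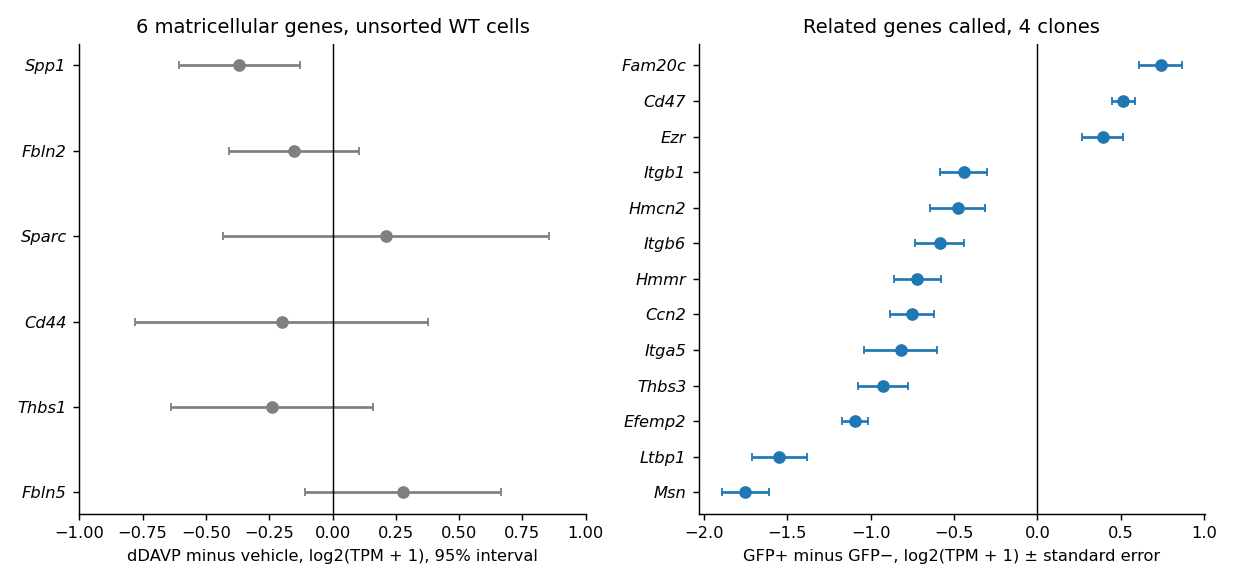
Left, dDAVP minus vehicle in WT cells on the log2(TPM + 1) scale (horizontal axis) for 6 genes, with 95% intervals; right, GFP-positive minus GFP-negative on the same scale for the 13 related genes called, with standard errors. The interval excludes 0 only for Spp1 (-0.61 to -0.13), and the related genes run from Msn at -1.75 to Fam20c at 0.74.

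Genes with the most similar pattern to Spp1 and Fbln2 were found by the root mean square difference between profiles of the 10 group means, each centred on its own mean on the log2(TPM + 1) scale, among 10206 genes with a mean of at least 5 TPM. Fbln2 was the nearest gene to Spp1 (0.631), ahead of Cdh13 (T-cadherin, 0.713), Wnt10a (a secreted Wnt ligand, 0.774), Fn1 (0.780) and Slc4a11 (0.803), where the median of all genes was 2.14. For Fbln2 the nearest were Slc4a11 (0.474), Spp1 (0.631), Wnt10a (0.676), Ccnd1 (0.769) and Cdh13 (0.772), where the median was 2.06. Fn1 (fibronectin), a matrix protein that fibulins bind, had medians of 47.8 TPM with vehicle, 29.4 with dDAVP, 47.6 in GFP-negative and 4.3 in GFP-positive libraries. Slc4a11, a transporter of corneal and kidney epithelium, had medians of 124, 113, 170.4 and 8.26 TPM in the same order. A gene that did not vary between groups would lie 2.17 from Spp1 and 2.09 from Fbln2, close to these medians. Spp1 and Fbln2 were both picked for large falls in these libraries, so their nearness follows in part from that choice. The likeness rests on 10 groups that share the split by GFP and is a description with no test.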

How the data were processed

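RNA-seq was made from 22 libraries of mpkCCD cells in 10 groups, taken with their replicate numbers from the sample labels. Per the labels' protocols, the SMART-Seq HT kit turned total RNA into cDNA and Nextera XT made the libraries. The submitters' processing notes name STAR and RSEM. Versions, genome build and annotation are not given in the sources used here. The authors deposited TPM per gene and library in a table of 55415 lines. The table also holds 16 columns of the authors' means, maxima and ratios, which were not used. TPM keep no depth, so precision is known from the spread between libraries alone, given as mean ± SD.

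Lines with the same symbol were summed, which left 54514 entries, and no pair of libraries held identical values. Models were fitted with limma 3.58.1 in R 4.3.3 (eBayes with a mean-variance trend) to log2(TPM + 1), a pseudocount of 1, over all genes with a mean of at least 1 TPM in the libraries of the fit. P-values were two-sided (F-tests for clones) and adjusted by the Benjamini-Hochberg method, with a call at an adjusted p under 0.05. The dDAVP fit used the 6 WT libraries. The GFP fit used the 16 clone libraries with clone as covariate, and the clone tests used a mean per clone and fraction in the same libraries. Each fit was tested on simulated data. Replicate numbers are not shown to pair the libraries and were not used as pairs in the main fits. The correlation of same-numbered deviations was over 0.1 in C43 alone (0.212).

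The 9 genes, the related gene lists and the markers were chosen with earlier results of these data known. Of the related genes, the 4 largest rises and 4 largest falls called in each comparison were to be named, and for likeness the 5 nearest genes. Related genes named beyond these (Itga5, Itgb1, Itgav, Itgb5, Hmmr, Hmcn2, Ccn1, Ccn2, with Itgb6 between fractions and Msn with dDAVP) were added after their values were seen. Promoter windows came from RefSeq and were matched by symbol, and their overlap with exons was checked against the GENCODE annotation of the same build. Alternatives were a pseudocount of 0.1, median-ratio scaling, quantile normalization, filters at a mean of 5 TPM or at any TPM above 0, no trend, robust moderation, a replicate block, genes detected as a covariate, and leaving out each library or clone.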

Additional observations from a re-analysis of the deposited data

Results flagged for a closer look

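Spp1 was the only gene of the 6 tested whose difference between GFP-positive and GFP-negative cells differed between the clones (limma interaction adjusted p = 0.000785, where 0.869% of all genes passed). The test uses the libraries in which Spp1 was picked for its fall, so it is not independent of that choice. Its size was -5.24 in C50 and -5.15 in C1 against -3.44 in C43 and -2.72 in C11 on the log2(TPM + 1) scale. The adjusted p stayed between 0.000380 and 0.0290 over 25 alternatives.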

How the results depend on the processing

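For dDAVP in WT cells the count called was 0 except with a filter at a mean of 5 TPM, which gave 1 (Spp1). The log2 difference of Cd44 ranged from -0.41 to 0.0153 with a library left out (0.0153 without dDAVP replicate 2), and that of Fbln2 turned to 0.0141 with median-ratio scaling and 0.0516 with quantile normalization. The interaction count of 1 ranged from 1 to 3 with a library left out. The count between clones in GFP-negative cells, 5, became 3 with a pseudocount of 0.1 and 2 with the filter at 5 TPM, which only 3 of the genes passed. In GFP-positive cells the count of 3 became 5 with quantile normalization and 5 with genes detected as a covariate, and ranged from 1 to 5 with a library left out. The related genes called with dDAVP, 7, became 4 with any TPM above 0, 4 with median-ratio scaling and 4 with no trend, and ranged from 2 to 7 with a library left out. With the replicate block the related count for dDAVP was 0, the counts of the 9 genes for dDAVP, interaction and clones in each fraction were 0, 1, 5 and 3, and 12 related genes were called between fractions. The same-numbered deviations correlated at -0.208, -0.0254 and -0.109 in WT and at 0.0582, -0.0168, 0.212 and 0.0827 in C1, C11, C43 and C50, so the numbers are not shown to pair the libraries. The related genes called between fractions, 13, ranged from 10 to 15 over 25 alternatives. The cause of these shifts was not tested. Depth is unknown and values under 1 TPM are the least certain.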
